A study of Mus musculus with 10 samples.

Results

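The genes described here are 38 cytosolic and mitochondrial heat shock chaperones, their co-chaperones and the heat shock factors that control them, out of 22552 genes listed in the expression tables. They were taken as a fixed list of gene symbols and grouped by family: 8 HSP70 and HSP110 proteins, 2 HSP90 proteins, 3 small heat shock proteins, 9 chaperonin genes, 5 J proteins, 9 other co-chaperones and 2 heat shock factors. All 38 symbols were found, and 37 of them passed the filter of a mean of at least 1 FPKM (fragments mapped to a transcript, scaled to its length in kilobases and to the depth of the library) that defined the 10901 genes tested. The exception was Hspa1a. The study asked how the cold-inducible RNA-binding proteins Cirbp and Rbm3 bind RNA and shape the transcriptome of mouse embryonic fibroblasts (MEFs), connective tissue cells cultured from embryos. Polyadenylated RNA was sequenced from mock-transfected MEFs at 32 °C, MEFs transfected with siRNA against Cirbp at 37 °C, MEFs transfected with siRNA against Rbm3 at 37 °C and mock-transfected MEFs at 37 °C, with 2 libraries each. Binding sites came from PAR-CLIP, in which RNA labelled with 4-thiouridine (100 µM for 16 h) is crosslinked to a protein and recovered with it, from 1 MEF line expressing FLAG-tagged Cirbp and 1 expressing FLAG-tagged Rbm3, both kept at 37 °C. The time the cells spent at 32 °C is not given in the sources used here, and neither is whether the numbers of the siRNA libraries stand for separate siRNAs or repeat transfections, so all p-values measure the spread between these libraries, which may be technical.

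Chaperones help proteins fold and keep unfolded chains from aggregating. HSP70 binds short exposed stretches of a chain in a cycle driven by ATP, J proteins deliver the chain and start the ATP hydrolysis, and HSP110 and BAG proteins exchange the nucleotide that ends the cycle. HSP90 acts later, on kinases, steroid receptors and other clients handed over by co-chaperones, while the ring-shaped chaperonins enclose a chain in a cavity: TRiC/CCT in the cytosol, which folds actin and tubulin, and the HSP60 and HSP10 pair in mitochondria. Small heat shock proteins hold unfolded chains without ATP. Many of these genes carry heat shock elements, repeats of the letters nGAAn, which the transcription factor Hsf1 binds when unfolded proteins accumulate. Warming the cell above its usual temperature is the classical trigger, and here the contrast is with cells kept below 37 °C.

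The 8 libraries held 24.8 to 27.8 M mapped fragments, so the depth was similar between groups. Cirbp was at 10.8 and 6.07 FPKM in the siCirbp libraries, against 15.9 and 17.1 FPKM in mock cells at 37 °C (log2 difference -0.94, adjusted p = 0.116 by limma). The same siCirbp libraries held Rbm3 at 5.54 and 7.55 FPKM, against 1.85 and 2.21 FPKM in mock cells at 37 °C (1.31, adjusted p = 0.0588), so both lay above every other library. Rbm3 was at 3.05 and 1.16 FPKM in the libraries labelled siRbm3, against 1.85 and 2.21 FPKM in mock cells at 37 °C, so replicate 1 with that label lay above both mock libraries and the label is quoted as such below. At 32 °C Cirbp was at 34.5 and 37.2 FPKM and Rbm3 at 3.64 and 3.20 FPKM. The libraries labelled siRbm3 also stood apart from each other: the median gap between replicates over the tested members was 0.314 on the log2(FPKM + 1) scale in them, 0.124 at 32 °C, 0.174 in siCirbp and 0.0904 in mock cells at 37 °C. Of 11 fibroblast markers, 9 had a mean of at least 1 FPKM, while Thy1 was listed at 0 in every library and Lum did not exceed 0.181 FPKM. Their summed level was 11130 and 13892 FPKM at 32 °C, 6050 and 6954 in siCirbp, 9748 and 11846 in the libraries labelled siRbm3 and 9622 and 9672 in mock cells at 37 °C. Much of this sum was S100a4, at 7339 and 10168 FPKM at 32 °C, against 4421 and 4315 FPKM in mock cells at 37 °C. Of the 9 tested at 32 °C, 3 were called higher (S100a4, Dcn and Pdgfra) and 4 lower (Col1a1, Col1a2, Fn1 and Pdgfrb). Over all genes tested, limma called 13.0% higher and 19.8% lower. The part of this in the results was not tested. Of the markers listed for other cell types, 5 of 8 for blood cells (among them Ptprc and Itgam), 5 of 6 for epithelium (among them Epcam and Cdh1), 4 of 5 for endothelium (among them Cdh5 and Kdr) and 4 of 5 for muscle (among them Myod1 and Myog) stayed under 0.1 FPKM in every library. The blood list summed to 30.5 and 36.0 FPKM at 32 °C, against 17.6 and 20.6 FPKM in mock cells at 37 °C, through Cd68 and Cd14, while its Csf1r did not exceed 0.510 FPKM. In the epithelial list Krt19, a keratin, fell to 0.122 and 0 FPKM at 32 °C, against 1.34 and 1.70 FPKM in mock cells at 37 °C (-1.25, adjusted p = 0.0427), and it was at 2.35 and 7.55 FPKM in the libraries labelled siRbm3. Of the last 2 lists, endothelial Pecam1 did not exceed 0.359 FPKM, and Des, of muscle, was at 1.21 and 1.09 FPKM at 32 °C, 3.09 and 0.531 in siCirbp, 1.41 and 2.07 in the libraries labelled siRbm3 and 0.677 and 0.754 in mock cells at 37 °C. The part of these markers in the results was not tested. Being bulk RNA, these data cannot tell fewer cells of a type from less RNA per cell.

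The chaperone genes spanned nearly the whole range of expression. Hsp90ab1, the constitutive cytosolic HSP90, was the highest with a mean of 1070 FPKM over the 8 libraries, rank 26 of the 10901 genes tested, followed by the TRiC/CCT subunit gene Cct5 at 395 FPKM (rank 91). At the other end stood Hspa8, the constitutive HSP70, at 1.80 FPKM, and Hsp90aa1, the inducible HSP90, at 1.68 FPKM (rank 10361). Hspa8, Hsp90aa1, Hspd1, Hspe1 and the pair Hspa1a and Hspa1b have near-identical copies in the mouse genome, and how reads with several positions were counted is not given, so their levels are uncertain. Hspa1a, the inducible HSP70, was covered by 6 and 8 reads at 32 °C, 4 and 7 in siCirbp, 7 and 2 in the libraries labelled siRbm3 and 1 and 5 in mock cells at 37 °C, too few to compare. All 38 genes together summed to 3135 and 3473 FPKM at 32 °C, against 3370 and 3321 FPKM in mock cells at 37 °C. The FPKM of all genes summed to different totals, and as a share of that total the members took 0.859% and 0.805% at 32 °C, against 0.970% and 0.908% in mock cells at 37 °C. The composition of that sum differed: Hsp90ab1 made up 14.3% and 13.4% of it at 32 °C, and 31.4% and 30.1% in mock cells at 37 °C.

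Mock cells at 32 °C were compared with mock cells at 37 °C to see what mild cooling does to the chaperone genes. The main HSP90 gene, a pair of HSP110 genes and several co-chaperones fell at 32 °C, while 2 subunit genes of the cytosolic chaperonin and 1 J protein rose. Of the 37 members tested, 7 fell (Bag3, Hsp90ab1, Hsph1, Hspa4l, Dnajb6, Hsf1 and Stip1) and 3 rose (Cct3, Cct8 and Dnaja2) at an adjusted p under 0.05. Over all genes tested, limma called 32.8% in this comparison (19.8% lower and 13.0% higher), so the number of members called, 10, is close to that background, and what follows is about which genes they were and how far they moved. The median log2 difference was 0.18 over the members and -0.02 over all genes tested. The libraries of both groups did not overlap for 12 members on the low side and 20 on the high side, where 43.8% and 41.0% of all genes tested did the same. The calls lean on all 4 mock libraries: leaving out any 1 of them left Bag3 as the one member called, joined by Cct3 without replicate 1 at 32 °C. Leaving out both libraries labelled siRbm3, which enter through the shared estimate of the spread and the filter on the mean level, gave 10 higher and 10 lower. That fit called 5068 genes in all, where the main fit called 3573. Scaling moved the split between directions too, to 10 higher and 4 lower with libraries centred on their medians (which shifted all genes by 0.12), 5 and 8 after quantile normalization and 5 and 10 with a length trend removed. Leaving aside the omission of single libraries, Bag3, Hsp90ab1, Hspa4l and Cct3 passed under all 11 alternative settings. Cct8 and Dnaja2 did not pass after quantile normalization, Hsph1 with no filter on low levels, Stip1 with median centring or a replicate block, and Dnajb6 and Hsf1 each failed under 4 of the 11.

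**Figure D1:**
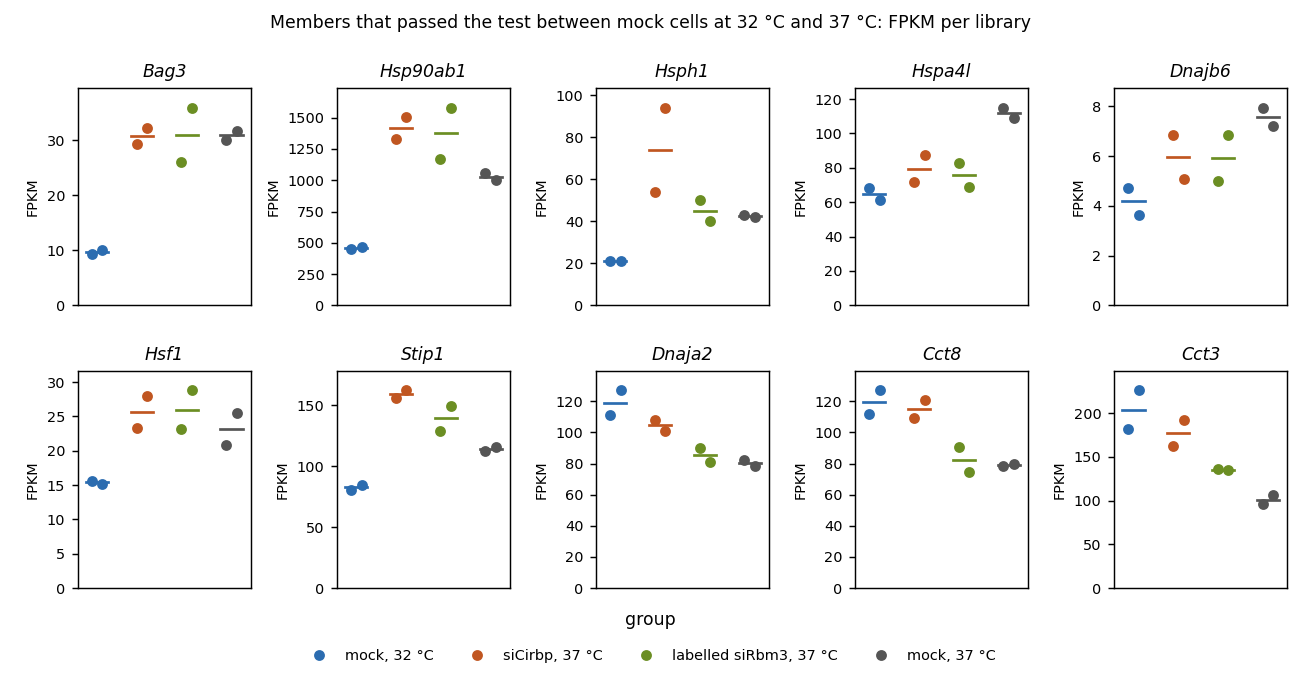
FPKM per library (points) and group mean (lines) of the 10 members called between mock cells at 32 °C and mock cells at 37 °C, in 4 groups of 2 libraries, each panel with its own axis from 0. In the first 7 panels both libraries at 32 °C lie below both mock libraries at 37 °C, and in Dnaja2, Cct8 and Cct3 they lie above them.

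Bag3, a nucleotide exchange factor of HSP70 that directs clients to autophagy, showed the largest difference of the members. Its level was 9.40 and 10.1 FPKM at 32 °C, against 30.1 and 31.7 FPKM in mock cells at 37 °C, 3.17-fold lower by the means, with a log2 difference of -1.57 (SE 0.18, adjusted p = 0.00237). The siCirbp libraries, at 29.3 and 32.2 FPKM, and the libraries labelled siRbm3, at 26.0 and 35.9 FPKM, lay around the mock level at 37 °C, so the low values were those of the cooled cells.

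Among the HSP90 genes, Hsp90ab1 stood at 449 and 466 FPKM at 32 °C, against 1058 and 999 FPKM in mock cells at 37 °C. The groups were far apart, 2.25-fold by the means, and the log2 difference was -1.17 (SE 0.19, adjusted p = 0.00623). Hsp90aa1 had 1.15 and 0.968 FPKM at 32 °C, against 2.94 and 2.10 FPKM in mock cells at 37 °C, which rests on 85 and 68 reads against 219 and 152. Its estimate was also below 0 (-0.77, SE 0.27), without passing the test (adjusted p = 0.0651). Of the proteins that pass clients to HSP90, Stip1, the HOP adaptor that bridges HSP70 and HSP90, had 80.4 and 84.8 FPKM at 32 °C, against 112 and 116 FPKM in mock cells at 37 °C (log2 difference -0.46, SE 0.14, adjusted p = 0.0414). Other partners of HSP90 did not pass the test. Ahsa1, which speeds its ATPase, had a log2 estimate of 0.45 (adjusted p = 0.0670), and Cdc37, Fkbp4, Ptges3, Chordc1 and St13 had estimates between -0.05 and 0.20 that missed the threshold. With Bag1, a further nucleotide exchange factor, at 0.18, the 9 other co-chaperones counted 2 lower and none higher. The lower count is close to the 19.8% of all genes tested that were called lower, and 13.0% were called higher.

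In the HSP70 and HSP110 family 2 of 7 tested genes fell and none rose, where 19.8% of all genes tested fell and 13.0% rose. Hsph1, an HSP110 that exchanges the nucleotide of HSP70, was at 21.0 and 21.3 FPKM at 32 °C, against 42.9 and 41.8 FPKM in mock cells at 37 °C (log2 difference -0.97, SE 0.25, adjusted p = 0.0254). Hspa4l, a second HSP110, had 68.5 and 61.1 FPKM at 32 °C, against 115 and 109 FPKM in mock cells at 37 °C (-0.79, SE 0.17, adjusted p = 0.0127). Their close relative Hspa4 was at 60.6 and 63.7 FPKM at 32 °C, against 50.8 and 51.8 FPKM in mock cells at 37 °C (0.27, adjusted p = 0.188), so that Hspa4l over Hspa4 was 1.13 and 0.959 at 32 °C and 2.27 and 2.11 in mock cells at 37 °C. Hspa9, the mitochondrial HSP70, was at 275 and 291 FPKM at 32 °C, against 169 and 158 FPKM in mock cells at 37 °C. The groups did not overlap, yet its wide SE (0.29 on a log2 difference of 0.79) kept it from passing (adjusted p = 0.0697), and the libraries labelled siRbm3 held 123 and 243 FPKM. Hspa1b, the measurable copy of the inducible HSP70, had 1.35 and 1.68 FPKM at 32 °C, against 2.25 and 2.99 FPKM in mock cells at 37 °C (-0.52, adjusted p = 0.0795). Hspa8 overlapped between the groups, with 1.38 and 2.27 FPKM at 32 °C, against 2.37 and 1.83 FPKM in mock cells at 37 °C. Hspa14, a ribosome-associated HSP70, had an estimate of 0.25 (adjusted p = 0.230).

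No small heat shock protein passed the test, and the 3 did not share a direction. Hspb1, which forms large oligomers on unfolded chains, had 1.95 and 2.11 FPKM at 32 °C, against 3.58 and 3.90 FPKM in mock cells at 37 °C (log2 difference -0.64, adjusted p = 0.0502), from 36 to 74 reads per library over the series. Hspb8, the partner that Bag3 binds, had 37.6 and 40.0 FPKM at 32 °C, against 45.2 and 49.8 FPKM in mock cells at 37 °C (-0.28, adjusted p = 0.167). Cryab, the alpha B-crystallin of lens and muscle, had 19.5 and 23.2 FPKM at 32 °C, against 13.9 and 15.8 FPKM in mock cells at 37 °C (0.49, adjusted p = 0.330), and it varied widely between replicates elsewhere, with 29.7 and 12.3 FPKM in siCirbp.

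Of the 9 chaperonin genes 2 rose and none fell, where 13.0% of all genes tested rose and 19.8% fell. Their median log2 difference was 0.43, against -0.02 over all genes tested. All 9 estimates were above 0, where 5327 of 10901 genes tested were. That of Tcp1, at 0.01, turned to -0.16 after quantile normalization and to -0.04 with a length trend removed. Cct3 had 182 and 226 FPKM at 32 °C, against 96.2 and 106 FPKM in mock cells at 37 °C, 2.02-fold higher by the means (log2 difference 1.00, SE 0.17, adjusted p = 0.00669). Its main transcript carries the status "low data" in all 8 libraries. Cct8 had 112 and 127 FPKM at 32 °C, against 78.3 and 79.9 FPKM in mock cells at 37 °C (0.59, SE 0.16, adjusted p = 0.0274), a call not made after quantile normalization either. Cct2, Cct5, Cct7 and Cct4 had estimates of 0.61, 0.57, 0.43 and 0.31 (adjusted p = 0.0648, 0.0830, 0.0889 and 0.259), so these missed the threshold. Tcp1, the founding subunit gene, overlapped between the groups, with 190 and 213 FPKM at 32 °C, against 201 and 198 FPKM in mock cells at 37 °C.

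TRiC/CCT is built of equal numbers of 8 different subunits, and 7 of its subunit genes are among the members. Their levels were far from equal in every library. In the mock cells the highest, Cct5, exceeded the lowest, Cct7, by 5.95- and 5.69-fold at 32 °C and by 5.48- and 5.15-fold at 37 °C. The 7 genes summed to 1426 and 1659 FPKM at 32 °C, against 1081 and 1084 FPKM in mock cells at 37 °C. Within that sum Cct3 took 12.7% and 13.7% at 32 °C, against 8.89% and 9.78% in mock cells at 37 °C. Tcp1 took 13.3% and 12.9% at 32 °C, against 18.6% and 18.2% in mock cells at 37 °C. Neither share overlapped between mock cells at 32 °C and mock cells at 37 °C. The plot of subunit levels shows Tcp1 as the one gene whose bar at 32 °C stands beside that of the mock cells at 37 °C.

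**Figure D2:**
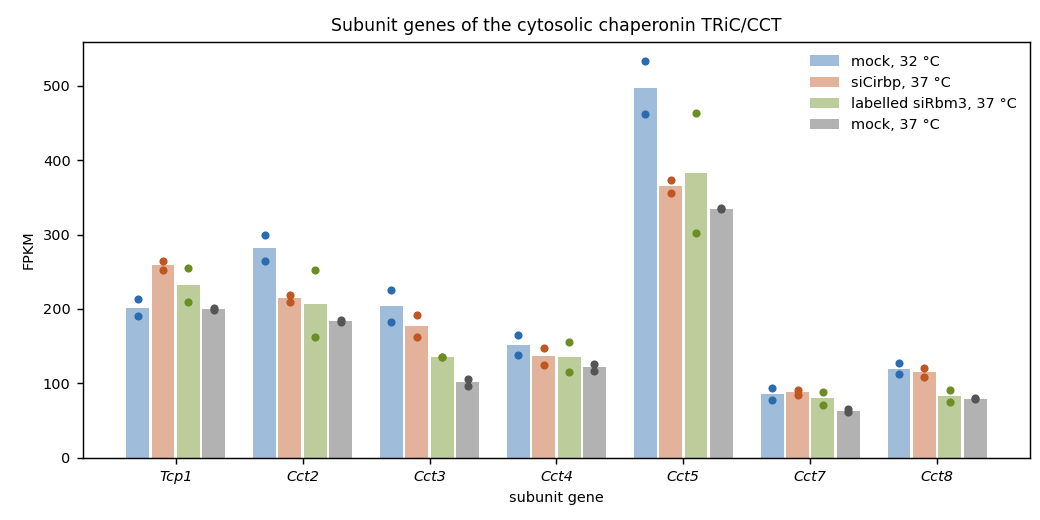
FPKM of 7 TRiC/CCT subunit genes in 4 groups, with bars for the group mean and points for the 2 libraries. Cct5 is the highest subunit gene in every group, and Cct3 has the largest ratio of the means between mock cells at 32 °C (182 and 226 FPKM) and mock cells at 37 °C (96.2 and 106 FPKM).

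The mitochondrial chaperonin pair was measured at much lower levels. Hspd1, which encodes HSP60, had 8.78 and 7.99 FPKM at 32 °C, against 7.39 and 7.18 FPKM in mock cells at 37 °C (log2 difference 0.18, adjusted p = 0.527). Hspe1, which encodes its lid HSP10, had 13.1 and 19.3 FPKM at 32 °C, against 12.1 and 11.2 FPKM in mock cells at 37 °C (0.42, adjusted p = 0.198). These genes lie side by side on chromosome 1 with 215 bases between their listed transcripts (mm9), in opposite directions from a shared promoter.

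J proteins split between both directions, 1 higher, 1 lower and 3 that missed the threshold, where 13.0% of all genes tested were called higher and 19.8% lower. Dnaja2, a main partner of cytosolic HSP70, had 111 and 127 FPKM at 32 °C, against 82.3 and 78.5 FPKM in mock cells at 37 °C (log2 difference 0.56, SE 0.14, adjusted p = 0.0249), a call not made after quantile normalization. Dnajb6, a suppressor of polyglutamine aggregation, had 4.71 and 3.65 FPKM at 32 °C, against 7.95 and 7.20 FPKM in mock cells at 37 °C (-0.73, SE 0.21, adjusted p = 0.0343). Dnaja1, another such partner, had 4.49 and 4.75 FPKM at 32 °C, against 1.96 and 2.10 FPKM in mock cells at 37 °C, a 2.27-fold difference of the means that missed the threshold (0.89, SE 0.30, adjusted p = 0.0542). Dnajb1, the heat-inducible J protein, had 35.9 and 40.3 FPKM at 32 °C, against 49.5 and 53.5 FPKM in mock cells at 37 °C (-0.43, adjusted p = 0.0689). Dnajb4 had an estimate of 0.24 (adjusted p = 0.562).

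Of the transcription factors, Hsf1, the main activator of the heat shock response, had 15.6 and 15.2 FPKM at 32 °C, against 20.9 and 25.5 FPKM in mock cells at 37 °C (log2 difference -0.55, SE 0.18, adjusted p = 0.0467). This call was close to the threshold and was not made with no filter, with median centring, with the highest transcript only or without limma's trend and robust options. Its relative Hsf2 had 14.7 and 15.6 FPKM at 32 °C, against 12.0 and 11.1 FPKM in mock cells at 37 °C (0.37, adjusted p = 0.115), so its libraries were apart in the other direction without passing the test. The activity of Hsf1 is set largely at the protein level, which these data do not measure.

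**Figure D3:**
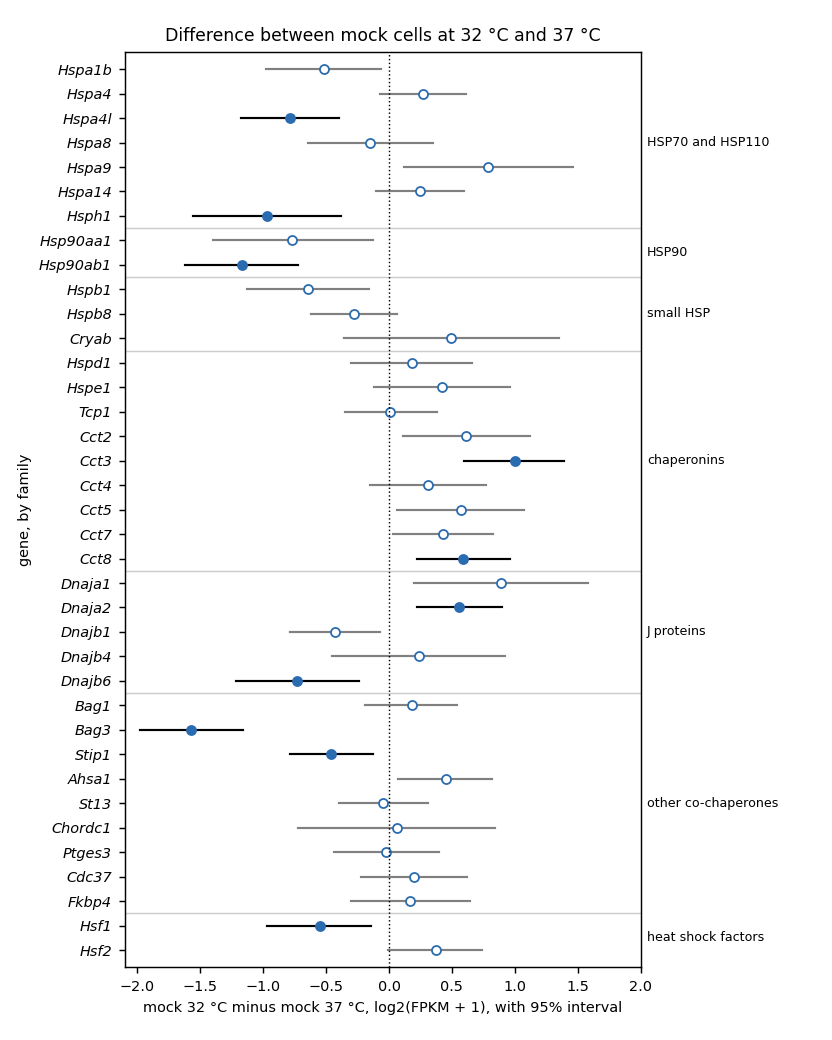
Difference in log2(FPKM + 1) between mock cells at 32 °C and mock cells at 37 °C for the 37 members tested, by family, with 95% intervals from limma; filled points passed the threshold. The 9 chaperonin genes lie at or right of 0 (0.01 to 1.00) and both HSP90 genes lie left of it (-1.17 and -0.77).

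Promoters of the members were read for the letters of a heat shock element, the known binding site of Hsf1. The motif searched was GAANNTTC or TTCNNGAA, each its own reverse complement and so read on both strands at once, within 250 bases before to 50 bases after each start site, in the promoter table of RefSeq on GRCm38.p6. Of the 38 members 30 are in that table, and 16 of them (53.3%) hold a match in at least 1 window, against 17.0% of the 27025 genes of the table. At least 2 matches in 1 window, overlapping ones included, occurred in 6 of 30 members (20.0%) and in 2.21% of all genes. The windows of Hspe1 and Hspd1 overlap and hold the same matches, so 1 stretch enters these member counts and those below for both genes. The windows of Hspa1a and Hspa1b are 98.7% identical, and both genes are among the 16. A match occurred in 3 of the 5 falling members in the table (Hsph1, Dnajb6 and Bag3; Hsp90ab1 and Hsf1 are not in it), in none of the 3 rising ones and in 12 of the 21 that were tested and not called. Shown here are those 3 falling genes and the promoter shared by Hspe1 and Hspd1, 5′ to 3′ on the strand of the named gene, with the matches in capitals.
Hsph1, chr5:149636316-149636515, minus strand, 200 to 1 bases before the start: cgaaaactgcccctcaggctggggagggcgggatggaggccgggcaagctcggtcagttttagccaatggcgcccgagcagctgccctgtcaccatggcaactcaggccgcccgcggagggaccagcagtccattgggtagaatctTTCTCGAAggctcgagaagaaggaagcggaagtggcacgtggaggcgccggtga
Dnajb6, chr5:29735698-29735897, plus strand, 200 to 1 bases before the start: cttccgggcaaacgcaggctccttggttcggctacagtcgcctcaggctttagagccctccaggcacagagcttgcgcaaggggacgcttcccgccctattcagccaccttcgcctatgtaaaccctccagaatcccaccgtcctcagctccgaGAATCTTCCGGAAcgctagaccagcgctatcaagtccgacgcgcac
Bag3, chr7:128523603-128523632, plus strand, 21 to 50 bases after the start: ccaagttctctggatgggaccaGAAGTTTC
Hspe1, chr1:55087948-55088147, plus strand, 200 to 1 bases before the start: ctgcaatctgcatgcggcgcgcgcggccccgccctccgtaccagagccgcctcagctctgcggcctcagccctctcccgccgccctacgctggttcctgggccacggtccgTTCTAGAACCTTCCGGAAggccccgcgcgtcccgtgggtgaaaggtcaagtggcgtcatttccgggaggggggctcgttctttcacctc
The same Hsph1 window holds further matches starting at bases 16 and 21 after the start, beyond the stretch shown. In Dnajb6 a pair of matches overlaps into 1 stretch starting 46 bases before the start, and in Hspe1 3 matches overlap into 1 stretch starting 89 bases before it. Hspe1 and Hspd1 were both among the members that did not pass the test at 32 °C. A match is a string of letters in a reference sequence and says nothing of binding in these cells.

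The siCirbp libraries were compared with mock cells at 37 °C to ask what lowering Cirbp does at an unchanged temperature. A single member, Hspa14, rose, and none fell. That is 1 of 37, where limma called 3.39% of all genes tested (2.77% higher and 0.624% lower). Hspa14 had 35.1 and 40.9 FPKM in siCirbp, against 21.0 and 22.4 FPKM in mock cells at 37 °C, 1.75-fold higher by the means (log2 difference 0.78, SE 0.15, adjusted p = 0.0427). This call did not last when any 1 mock library or siCirbp replicate 2 was left out. Without both libraries labelled siRbm3, 8 members were called higher, namely Hspa14, Cct3, Cct8, Bag1, Ahsa1, Stip1, Hspa4 and Dnaja1. That fit called 1612 genes in all in this comparison, where the main fit called 370, so 3.39% is not its background.

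Most other chaperone genes had estimates above 0 in siCirbp, below the test's threshold. The median over members was 0.35 against 0.08 over all genes tested, and 31 of 37 estimates were above 0, where 6430 of 10901 genes tested were. Above both mock libraries lay 27 members, where 38.5% of all genes tested did. A further 3 lay below both, against 21.9% of all genes tested. Next after Hspa14 came Cct3, with 162 and 192 FPKM in siCirbp, against 96.2 and 106 FPKM in mock cells at 37 °C (0.80, adjusted p = 0.0512). Stip1 had 156 and 162 FPKM in siCirbp, against 112 and 116 FPKM in mock cells at 37 °C (0.47, adjusted p = 0.102). Hsp90ab1 had 1332 and 1503 FPKM in siCirbp, against 1058 and 999 FPKM in mock cells at 37 °C (0.46, adjusted p = 0.198). All 4 of these genes thus lay above the mock libraries in both siCirbp libraries.

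Some members differed widely between the siCirbp replicates. Hsph1 had 53.7 and 94.0 FPKM in siCirbp, against 42.9 and 41.8 FPKM in mock cells at 37 °C (0.73, adjusted p = 0.137). Fkbp4, the immunophilin FKBP52 that serves steroid receptors, was at 73.1 and 100 FPKM in siCirbp, against 50.7 and 58.3 FPKM in mock cells at 37 °C (0.65, adjusted p = 0.109). Hspa4l was the lowest estimate, with 71.9 and 87.3 FPKM in siCirbp, against 115 and 109 FPKM in mock cells at 37 °C (-0.50, adjusted p = 0.127). Bag3 (-0.01), Dnajb1 (0.09), Hsf1 (0.14) and Hsf2 (0.08) had estimates close to 0 in the same fit.

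By family, the chaperonins had a median of 0.40 and the other co-chaperones of 0.40, the HSP70 and HSP110 genes of 0.19 and the J proteins of 0.15. Summed FPKM of the 9 other co-chaperones were 725 and 747 in siCirbp, against 540 and 554 in mock cells at 37 °C. The 7 TRiC/CCT genes summed to 1352 and 1357 FPKM in siCirbp, against 1081 and 1084 FPKM in mock cells at 37 °C. Subunit levels were less uneven here, with Cct5 over Cct7 at 4.42 and 3.90 in siCirbp, against 5.48 and 5.15 in mock cells at 37 °C. In the libraries labelled siRbm3 the highest subunit gene over the lowest was 4.27 and 6.22, so replicate 1 with that label was also less uneven. The comparison at 32 °C uses the same mock libraries at 37 °C, so neither comparison is evidence for the other.

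**Figure D4:**
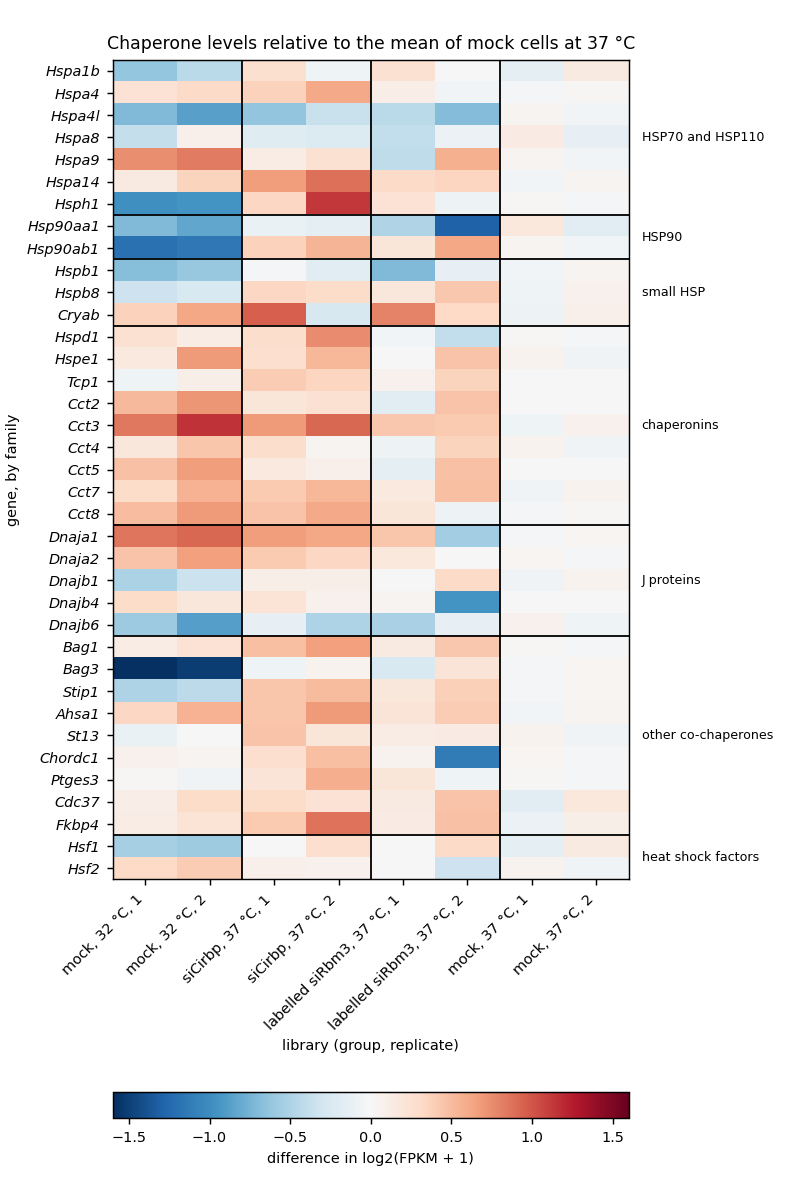
Difference of each library from the mean of the mock cells at 37 °C, in log2(FPKM + 1), for the 37 members tested (rows, by family) and the 8 libraries (columns, by group). Bag3, Hsp90ab1 and Hsph1 are low in both libraries at 32 °C, and replicate 2 labelled siRbm3 is low in Hsp90aa1, Dnajb4 and Chordc1 where replicate 1 is not as low.

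In the libraries labelled siRbm3 no member passed the test against mock cells at 37 °C. Limma called 0 genes in all (0%) in this comparison, with 1451 genes (13.3%) and 3 members (Hspa4l, Hsp90aa1 and Cct3) at an unadjusted p under 0.05. The member median, 0.13, was near the 0.12 of all genes tested. Hspa4l had 83.0 and 69.1 FPKM in the libraries labelled siRbm3, against 115 and 109 FPKM in mock cells at 37 °C (-0.56, adjusted p = 0.350). Cct3 had 136 and 135 FPKM there, against 96.2 and 106 FPKM in mock cells at 37 °C (0.42, adjusted p = 0.365). Hsp90ab1 had 1172 and 1580 FPKM there, against 1058 and 999 FPKM in mock cells at 37 °C (0.40, adjusted p = 0.399).

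Several members differed more between the replicates with this label than between groups. Dnaja1 had 3.12 FPKM in replicate 1 and 1.06 FPKM in replicate 2 labelled siRbm3, against 1.96 and 2.10 FPKM in mock cells at 37 °C. Dnajb4 had 28.1 and 13.5 FPKM, against 27.2 and 27.3 FPKM in mock cells at 37 °C. Chordc1, a co-chaperone with CHORD zinc-binding domains, had 14.9 and 6.04 FPKM, against 14.6 and 14.0 FPKM in mock cells at 37 °C. In each of these replicate 2 was the low one and replicate 1 lay above both mock libraries. Leaving out replicate 1, whose Rbm3 was not below the mock level, left a lone library with this label. The estimates against mock cells at 37 °C were then -1.12 for Chordc1, -0.96 for Dnajb4 and -1.30 for Hsp90aa1. Hsp90aa1 had 1.51 and 0.422 FPKM under this label, the second value resting on 28 reads.

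Set directly against each other, the siCirbp libraries and the libraries labelled siRbm3 gave no member past the threshold, with 8 of 37 at an unadjusted p under 0.05, where 15.2% of all genes tested were, while limma called 4 genes in all (0.0367%; 0.0183% higher and 0.0183% lower). The member median was 0.19 against -0.00 over all genes tested, and 31 of 37 estimates were above 0, where 5363 of 10901 genes tested were. Chordc1 had the largest estimate, with 17.5 and 20.4 FPKM in siCirbp, against 14.9 and 6.04 FPKM in the libraries labelled siRbm3 (0.92, 95% interval 0.14 to 1.70, adjusted p = 0.284). Hspa14 had 35.1 and 40.9 FPKM in siCirbp, against 27.0 and 27.9 FPKM in the libraries labelled siRbm3 (0.45, 95% interval 0.11 to 0.80, adjusted p = 0.263), so its call against the mock cells is not shown to be particular to siCirbp. Leaving out replicate 1 labelled siRbm3 again left a lone library in that group, so only estimates are given for that fit. Those of siCirbp against that library were 1.17 for Hsp90aa1, 0.91 for Hspd1 and 0.61 for Cct8.

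The tables list 45 transcripts for the 38 members, and 4 members have more than 1 (Cct3, Dnaja1, Dnajb4 and Dnajb6). The share of each transcript could be tested for Dnajb6 alone, since the others had a minor form with a mean share under 10% or a mean level under 5 FPKM. No Dnajb6 transcript passed in any comparison, where 0.238% of 2936 transcripts were called at 32 °C and 0% in each of the others. Of its forms, the 1120 nt form ends furthest upstream, followed by the 1642 nt form and then the 2708 nt form. The 1642 nt form took 27.1% and 27.4% of Dnajb6 FPKM at 32 °C, against 10.2% and 5.38% in mock cells at 37 °C. Its log2 ratio difference was 1.41 (SE 0.32, adjusted p = 0.152 by limma). The short 1120 nt form took 56.8% and 59.2% at 32 °C, against 74.3% and 76.3% in mock cells at 37 °C (-0.91, adjusted p = 0.197). Neither form overlapped between the groups, but the whole gene was covered by 123 to 271 reads per library.

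PAR-CLIP sites fell in 11 of the 37 tested members, 29.7%, where 13.8% of all genes tested had a site of either protein, with 15 sites in all, 10 of Cirbp and 5 of Rbm3. Cirbp sites lay in 8 members (21.6%), where 8.32% of all genes tested had one, and Rbm3 sites in 5 members (13.5%), where 8.79% did. Sites of both proteins lay in 2 members (5.41%) and in 3.28% of all genes tested. Highly expressed genes had sites more often, and at a mean of 100 FPKM or more 13.5% of all genes tested had a Cirbp site and 12.8% an Rbm3 site, against 3 and 1 of 9 members. With 1 library for each protein there is no test of these shares, and only 3 members kept a Cirbp site and 1 an Rbm3 site when sites with a score under the median of their set (301 and 318) were left out. Of the members called at 32 °C, Hsp90ab1, Hspa4l and Dnaja2 carried a site and the other 7 did not.

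Hspa4 held the most sites, 3 of Cirbp and 1 of Rbm3, on chromosome 11 of mm9, the build of all site positions. Its Cirbp site at 53075060 to 53075098 and its Rbm3 site at 53075075 to 53075101 share 24 bases, and both lie near the 3′ end of the gene, 1763 and 1772 bases from it. The other Cirbp sites of Hspa4 were at 53079444 to 53079475 and at 53086336 to 53086363, inside the span. Hsp90ab1, on chromosome 17, was the other member with sites of both proteins: the Cirbp site at 45708825 to 45708853 lies wholly within the Rbm3 site at 45708825 to 45708857. Both scored low, 233 for Cirbp and 101 for Rbm3 on a scale of the authors that ran from 1 to 1000.

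Single Cirbp sites lay in Hspa4l at 40570766 to 40570804 on chromosome 3, the highest score among the members (454, reached by 15.0% of the Cirbp sites), and in Ptges3, Dnaja2, Hspa1b, Cct2 and Tcp1. The site in Dnaja2 (chromosome 8, 88062716 to 88062764) was 1202 bases from the 3′ end of the gene and that in Ptges3 (chromosome 10, 127514043 to 127514067) 255 bases from it. Single Rbm3 sites lay in Hspa14 (chromosome 2, 3425781 to 3425824), Dnajb1 (chromosome 8, 86134027 to 86134072) and Ahsa1 (chromosome 12, 88614649 to 88614690). The Ahsa1 site was 233 bases from the 3′ end. All sites lay on the strand of their gene where the reference table gives it, which it does not for Hsp90ab1. Hspa14, the member that rose in siCirbp, carried an Rbm3 site and no Cirbp site.

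**Figure D5:**
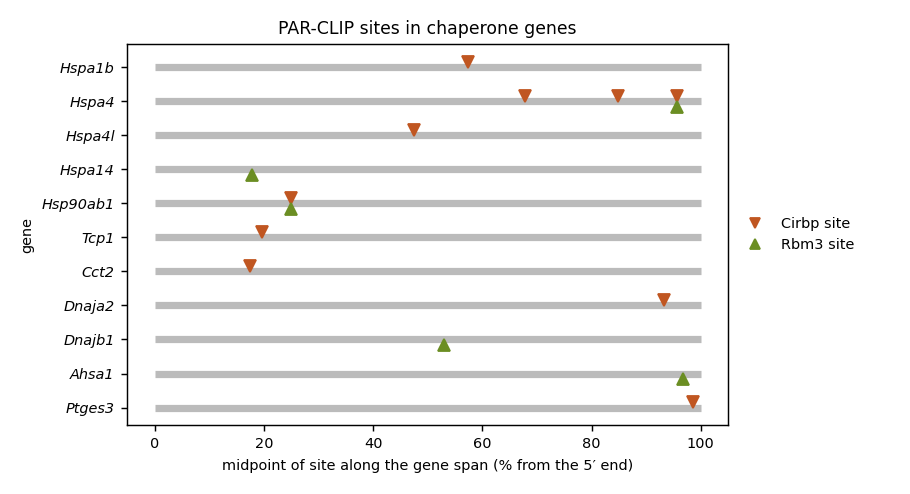
Midpoints of the 15 PAR-CLIP sites along the span of the 11 member genes, from the 5′ end (0%) to the 3′ end (100%, by the strand of the site in Hsp90ab1), with Cirbp sites as triangles pointing down and Rbm3 sites as triangles pointing up. Sites of both proteins coincide in Hspa4 (95.7% and 95.6%) and in Hsp90ab1 (25.0% each).

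Other folding genes, listed beside the members and not among them, were counted in the same fit and are read against the 13.0% of all genes tested that limma called higher and the 19.8% it called lower at 32 °C. At 32 °C the remaining chaperonin and prefoldin genes counted 5 higher and none lower of 9 tested, with a median of 0.61: Pdcl, a phosducin-like partner of TRiC/CCT (1.13, adjusted p = 0.00809), Cct6a, the eighth subunit (0.84, adjusted p = 0.00865), and the prefoldin subunits Pfdn4 (0.91, adjusted p = 0.0102) and Pfdn1 (0.91, adjusted p = 0.0113) had the smallest adjusted p. Further cytosolic co-chaperones and J proteins counted 8 higher and 6 lower of 29, led by Bag6, which guards tail-anchored proteins and was 23.4 ± 0.650 FPKM at 32 °C and 62.6 ± 6.93 FPKM in mock cells at 37 °C (SD, n = 2 each; log2 difference -1.38, adjusted p = 0.00237), Ttc1 (1.01, adjusted p = 0.00389), Dnajc8 (1.04, adjusted p = 0.00438) and Sgta (-0.79, adjusted p = 0.00848). Mitochondrial folding and proteolysis genes counted 3 higher and 1 lower of 13. The lower one was the protease Lonp1 (-1.50, adjusted p = 0.00837), and the higher ones were Grpel1 and Grpel2, nucleotide exchange factors of Hspa9 (0.75 and 0.65, adjusted p = 0.0143 and 0.0201), and the protease subunit Clpp (0.76, adjusted p = 0.0154). Chaperones of the endoplasmic reticulum counted 3 higher and 1 lower of 15, with Hspa5, Manf and Pdia3 higher and P4hb lower (-0.83, adjusted p = 0.0298). In siCirbp, where 2.77% of all genes tested were called higher, these lists counted 3 genes higher of 66 tested, Dnajc9 (1.46, adjusted p = 0.0364), Hspbp1 (0.94, adjusted p = 0.0369) and Dnajb11 (0.70, adjusted p = 0.0421), and none lower.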

How the data were processed

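The authors deposited FPKM for each RefSeq transcript in Cufflinks tables, and these values were not rescaled. Per the submitters' processing notes reads were aligned with TopHat 1.1.2 to mm9, and per the labels they were 76 nt single-end reads of polyadenylated RNA. The authors also deposited the coverage of each transcript, in reads per base, from which reads were recovered, which came out whole within 0.05 for 92.0% to 92.4% of genes of 1 transcript with under 100 reads and at least 450 nt. For PAR-CLIP the authors deposited called sites with a score, 1 to 1000. What the score means is not given in the sources used here.

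FPKM were summed per gene over the listed transcripts. Genes with a mean of at least 1 FPKM were tested on log2(FPKM + 1) with limma 3.58.1 in R 4.3.3 (4 group means, 4 residual degrees of freedom, trend and robust options), two-sided, with Benjamini-Hochberg adjustment over all 10901 genes and a threshold of 0.05. Fold changes on this scale understate those of low genes. Errors are SE from limma or the SD of 2 libraries. Libraries with the same replicate number did not deviate together (correlations of -0.153 to 0.091), so no block was used. A site belonged to a gene when 1 base or more lay in the span of its transcripts. The fit was tested on simulated data, with an outcome that is not reported here and is not used to back any call. Members and lists were chosen with earlier results of these data known. Values per library are given for the members of a list set by symbol and for those past the threshold, and of the other lists up to 4 genes with the smallest adjusted p.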

Additional observations from a re-analysis of the deposited data

Results flagged for a closer look

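Hspd1 was the one member whose libraries lay on opposite sides of the mock libraries in the 2 siRNA groups. How many of all genes tested did the same was not counted. Replicate 1 labelled siRbm3, at 7.04 FPKM, lay just below the lower mock library at 7.18 FPKM. The level of Hspd1 is uncertain, since it has near-identical copies in the mouse genome. It had 9.08 and 13.0 FPKM in siCirbp and 7.04 and 5.32 FPKM in the libraries labelled siRbm3, against 7.39 and 7.18 FPKM in mock cells at 37 °C, so both siCirbp libraries lay above the mock libraries and both libraries labelled siRbm3 lay below them. The log2 difference between siCirbp and the libraries labelled siRbm3 was 0.73 (SE 0.20, 95% interval 0.26 to 1.21) and did not pass limma's test over all genes (adjusted p = 0.231, and 0.0322 to 0.849 over the alternatives, the lowest without replicate 1 labelled siRbm3). Its neighbour Hspe1 had 14.2 and 17.3 FPKM in siCirbp and 11.6 and 16.3 FPKM in the libraries labelled siRbm3, which overlap.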

How the results depend on the processing

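Limits: 2 libraries a group, and a label, siRbm3, that Rbm3 did not bear out in 1 library. At 32 °C 3 members were called higher and 7 lower, and 3573 genes in all. Higher calls numbered 10 with median centring, 5 after quantile normalization, 5 with a length trend removed, 15 with only the compared groups fitted and 10 without both libraries labelled siRbm3 (an alternative chosen after seeing the data). Lower calls numbered 4 with no filter, 4 with median centring and 12 with only the compared groups fitted, which called 7557 genes in all. Leaving out 1 library at a time gave 0 to 10 higher, 1 to 10 lower and 400 to 5061 genes. In siCirbp, 370 genes and 1 member were called. These became 57 and 0 with no filter, 217 and 0 with the highest transcript only, 13 and 0 with only the compared groups fitted, and 1612 and 8 without both libraries labelled siRbm3. Members numbered 2 at a mean of at least 5 FPKM, 2 after quantile normalization, 0 with a length trend removed and 0 without trend and robust options. Leaving out 1 library gave 4 to 1613 genes and 0 to 8 members. For siRbm3 against mock, 0 genes became 2 with a length trend removed, 2 with the highest transcript only and 5 with only the compared groups fitted, and 0 to 953 genes with 0 to 3 members lower on leaving out 1 library. For siCirbp against siRbm3, 4 genes became 7 with no filter and 7 with only the compared groups fitted, and 4 to 2130 genes with 0 to 6 members higher on leaving out 1 library. Members with a high-scoring site were 3 for Cirbp, against 8 with any, and 1 for Rbm3, against 5.

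With the replicate number as a block, siCirbp against mock called 3 genes and 0 members (Hspa14 was lost), and at 32 °C 4 members were higher and 5 lower, with Dnajb6 and Stip1 lost and Ahsa1 gained. No other member call changed under the block.

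Single members were followed under the alternatives for all 37 members at 32 °C and in siCirbp, and in the comparisons with the label siRbm3 for those named or called there. Of these 1644 values, 1461 kept their direction and side of the threshold, 100 crossed it to pass, 59 crossed it to fail and 24 changed sign. Over all 37 members the sign changed in 29 of 661 values for siRbm3 against mock and in 31 of 661 for siCirbp against siRbm3. At 32 °C the values that changed sign were, after quantile normalization, Tcp1 at -0.16 and Ptges3 at 0.12, with median centring St13 at 0.08 and Ptges3 at 0.11, and with a length trend removed Tcp1 at -0.04, Bag1 at -0.07 and Chordc1 at -0.02. Leaving out 1 library at a time gave -0.37 to 0.08 for Hspa8, -0.07 to 0.10 for Tcp1, -0.10 to 0.01 for St13 and -0.06 to 0.02 for Ptges3. In siCirbp quantile normalization gave Cct4 -0.01 and Dnajb1 -0.08. Leaving out 1 library there gave Hspa1b -0.08 to 0.26, Hsp90aa1 -0.31 to 0.04, Cryab -0.25 to 0.96 and Bag3 -0.07 to 0.06. For the label siRbm3 against mock it gave Dnaja1 -0.56 to 0.44, Dnajb4 -0.96 to 0.04 and Chordc1 -1.12 to 0.05, the higher value without replicate 2, and Dnaja1 was at 0.08 with a length trend removed. The cause was not tested.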
